A study of Mus musculus with 6 samples.

Results

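The complement components and regulators described here are 7 of the 53379 genes counted in Min6, a cell line from a mouse insulinoma that stands in for pancreatic beta cells. They are the components C4b, C4a, C3 and Cfb and the regulators Serping1, Cd55 and Cd59a. The set was drawn up because C4b was lower with a guide RNA (gRNA) against JunD, so its members' differences between the gRNAs are given as a description. How many of them passed in the fits over all genes is given beside the calls over all genes, and again for the processing alternatives. Nothing is read from those counts. The JunD gRNA group and the Rosa26 gRNA group, which is the negative control, each have 3 RNA-seq libraries. Cells of both groups carried the lentiCRISPR v2 vector, were at passage 28, and were taken 8 days post transduction. All had spent 30 hours in glucolipotoxic medium, which combines excess glucose with fatty acid. No unstressed or untransduced library is part of the comparison. The labels and files used here do not give the guide sequences, nor whether the cells were a pool or a clone. Whether each replicate was its own transduction is also not stated, so the p-values reflect only how these samples vary, possibly for technical reasons.

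Complement is a cascade of plasma proteins that tags cells and particles for clearance, attracts leukocytes and can open pores in membranes. The classical and lectin pathways cleave C4 and C2, the alternative pathway uses factor B, and all of them meet at C3. Host cells limit the cascade with secreted inhibitors and with membrane proteins. The liver makes most of the circulating components, but epithelial and endocrine cells, beta cells among them, also transcribe complement genes, and inflammatory cytokines are known to raise several of them.

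The libraries held 41071566 to 50024931 counts assigned to genes. Jund, the gene targeted, stood at 22.6, 25.1 and 26.9 CPM (counts scaled to a common library total) with the JunD gRNA, against 39.3, 34.5 and 30.4 CPM with the Rosa26 gRNA. The groups did not overlap for Jund, whose JunD gRNA mean was 71.5% of the Rosa26 gRNA mean. In GENCODE release M21, 877 of its 1668 exon bases (52.6%) are also exons of Gm11175 on the opposite strand. Gm11175 had 0 counts in all libraries. With the strand setting not stated, the level of Jund may rest on its unshared exon bases alone. A cut in the DNA need not lower the transcript, so this level does not measure the loss of the protein. Rosa26 gRNA replicate 1 stood apart from the other libraries across the transcriptome. Its difference from the mean of the other libraries had a median absolute value over genes of 0.303 (log2). The same measure was 0.088 to 0.159 in the other 5 libraries. Results are therefore given with all 6 libraries and with the 5 that remain without it. In edgeR's quasi-likelihood test with Benjamini-Hochberg adjustment, 0 of 17767 genes passed an adjusted p of 0.05 with 6 libraries (0% of genes). Of those genes 2119 had an unadjusted p under 0.05, and DESeq2 called 67 (0.377%). With 5 libraries edgeR called 523 of 18296 (2.86%), of which 257 were lower with the JunD gRNA (1.40%). All 10 beta cell markers were present. With 5 libraries edgeR called 5 of them higher with the JunD gRNA (Ins2, Pdx1, Mafa, Nkx6-1 and Slc2a2) and 2 lower (Iapp and Pcsk1). With GC content and transcript length corrected on those libraries it called 5 higher and 0 lower, with log2 fold changes of -0.03 for Iapp and -0.02 for Pcsk1, against -0.11 and -0.12 before. Of 8 macrophage markers 7 were under 1 CPM in every library, and their summed level was 2.73 to 3.73 CPM in JunD gRNA libraries and 3.70 to 5.06 CPM in Rosa26 gRNA libraries. The pan-leukocyte gene Ptprc and the macrophage gene Adgre1 were at or near 0, and most of the summed level was Cd68, a lysosomal protein gene, at 2.63 ± 0.382 CPM with the JunD gRNA and 3.61 ± 0.489 CPM with the Rosa26 gRNA (SD, n = 3 each). The summed endothelial markers, 4 of 6 under 1 CPM, stood at 2.27 to 2.75 CPM in JunD gRNA libraries and 3.09 to 3.66 CPM in Rosa26 gRNA libraries. The summed fibroblast markers stood at 2.56 to 4.13 CPM and the hepatocyte markers at 26.5 to 27.6 CPM in JunD gRNA libraries, against 2.12 to 4.04 CPM and 20.8 to 27.6 CPM in Rosa26 gRNA libraries. Most of the hepatocyte sum was Tat (mean 16.7 CPM with the JunD gRNA and 15.6 CPM with the Rosa26 gRNA) and Apoa2 (8.68 and 7.42 CPM). Of the 8 hepatocyte markers, 6 were under 1 CPM in every library. The endothelial sum was lower in all JunD gRNA libraries, as C4b was, and the macrophage sums overlapped slightly. Most of the endothelial sum was Pecam1 (mean 1.29 CPM with the JunD gRNA and 1.65 CPM with the Rosa26 gRNA) and Vwf (0.951 and 1.24 CPM). The groups of both genes overlapped. Tek was lower without overlap (0.222 and 0.471 CPM), and Cdh5, Kdr and Emcn had at most 0.242 CPM in any library. The part of these cells' RNA in the level of C4b was not tested.

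C4b, which encodes the mouse complement component C4 that forms part of the classical C3 convertase, was lower in every JunD gRNA library than in any Rosa26 gRNA library. It stood at 7.49, 7.99 and 6.53 CPM with the JunD gRNA, against 12.2, 13.6 and 11.3 CPM with the Rosa26 gRNA. These levels rest on 313, 328 and 324 counts with the JunD gRNA and on 531, 678 and 540 with the Rosa26 gRNA. The mean was 7.33 ± 0.741 CPM with the JunD gRNA and 12.4 ± 1.14 CPM with the Rosa26 gRNA (SD, n = 3 each), so that the JunD gRNA mean was 59.3% of the Rosa26 gRNA mean. The log2 fold change was -0.74 ± 0.12 (SE) with 6 libraries and -0.76 ± 0.11 with 5, and a value as low or lower was held by 2.48% and 2.26% of the genes tested in those fits. Rosa26 gRNA replicate 1 lay between the other Rosa26 gRNA libraries for this gene. The gene (ENSMUSG00000073418.4) lies on chromosome 17 from 34728380 to 34743882, on the minus strand of GRCm38 (mm10).

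**Figure D1:**
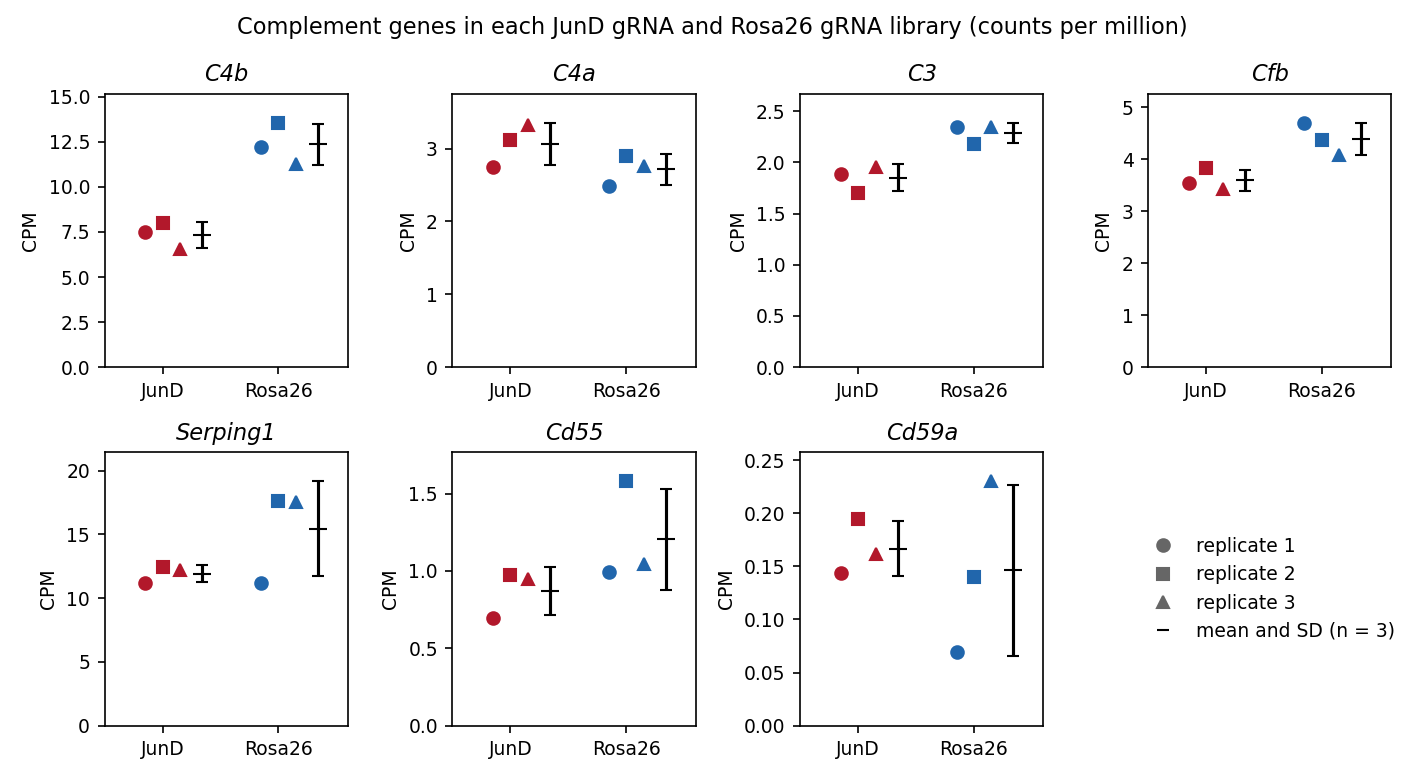
CPM of the 7 genes in each library, with a panel and a linear axis from 0 for each gene. JunD gRNA libraries are on the left (red) and Rosa26 gRNA libraries on the right (blue), marker shapes give the replicate number, and bars show the mean and SD (n = 3). C4b lies at 6.53 to 7.99 CPM with the JunD gRNA, below the 11.3 to 13.6 CPM with the Rosa26 gRNA, whereas the groups of C4a and Cd59a overlap.

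C4a, the near-identical neighbour of C4b, was not lower with the JunD gRNA. It is the gene of the sex-limited protein, a C4 homologue without the haemolytic activity of C4, and it lies on the same strand of chromosome 17 from 34809092 to 34823464. GENCODE release M21 annotates it as a processed transcript. It stood at 2.75, 3.12 and 3.32 CPM with the JunD gRNA, against 2.49, 2.90 and 2.76 CPM with the Rosa26 gRNA. The groups overlapped, with the 2 highest values in JunD gRNA libraries, and the log2 fold change was 0.19 ± 0.16 (SE) with 6 libraries and 0.12 ± 0.18 with 5. Because the copies are so alike, the sequences below show how far their reads can be told apart. The longest annotated transcripts of C4b and C4a were identical at 5160 of 5367 aligned bases (96.1%), and the longest identical run was 433 bases. Of the windows of 100 bases in the C4b transcript, 16.5% also occurred in C4a, and 35.2% of those of 50 bases did. The coding stretch of 60 bases within 1 exon that differed most had 13 differences. It lies in exon 21 of both transcripts, at chr17:34735430-34735489 in C4b and chr17:34816086-34816145 in C4a, both on the minus strand of GRCm38, and is shown 5′ to 3′ with the differing bases in capitals.
C4b: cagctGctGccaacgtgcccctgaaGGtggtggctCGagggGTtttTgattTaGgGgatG
C4a: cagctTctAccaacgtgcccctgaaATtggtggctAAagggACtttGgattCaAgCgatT
Reads from such a stretch are assignable to 1 copy, whereas reads from the identical runs are not. Neither the read length nor the handling of multi-mapping reads is stated in the sources used, so the split of counts between the copies is uncertain.

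The share of C4b among the counts of both copies was lower with the JunD gRNA. It was 73.1%, 71.9% and 66.3% in the JunD gRNA libraries, against 83.1%, 82.4% and 80.4% in the Rosa26 gRNA libraries. The groups did not overlap, and the 95% Wilson intervals, which cover counting error only, ran from 61.9% to 77.1% over the JunD gRNA libraries and from 77.2% to 85.8% over the Rosa26 gRNA libraries. Both copies together came to 10.4 ± 0.638 CPM with the JunD gRNA and 15.1 ± 1.24 CPM with the Rosa26 gRNA (SD, n = 3 each). With the copies summed as 1 gene the log2 fold change was -0.52, less far below 0 than for C4b alone. C4b was picked for being lower and made up 66.3% to 83.1% of these counts. A lower share and a lower total thus largely follow from that choice and are given as a description.

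**Figure D2:**
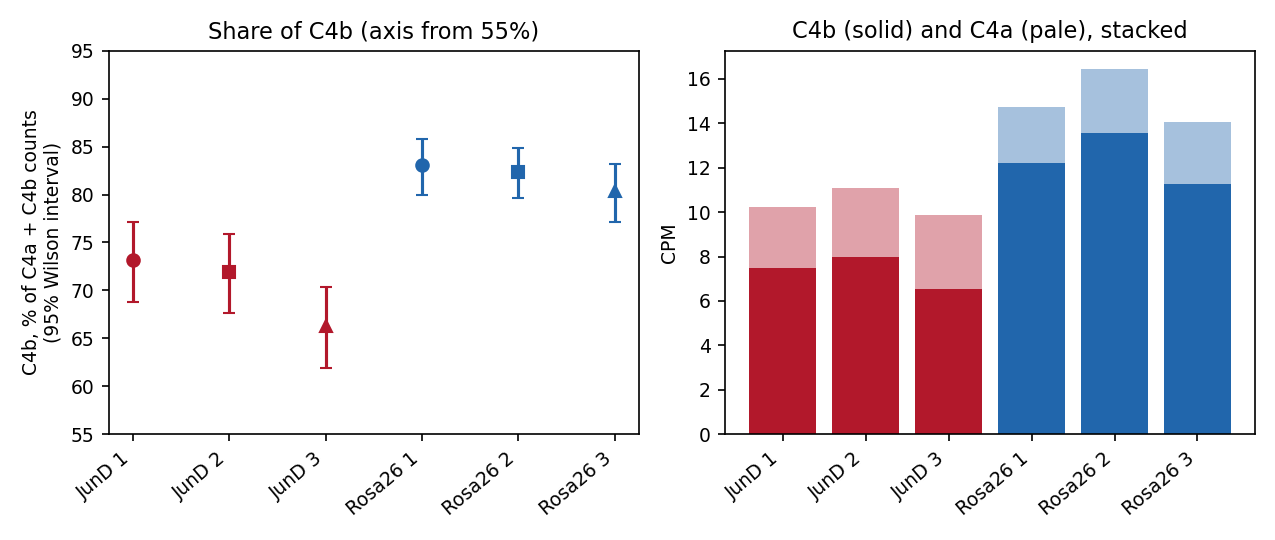
Left, C4b as a percentage of the counts of C4a and C4b together in each library, with 95% Wilson intervals on an axis that starts at 55%. Right, CPM of C4b (solid) and C4a (pale) stacked from 0, with JunD gRNA libraries in red and Rosa26 gRNA libraries in blue. The JunD gRNA libraries lie at 66.3% to 73.1%, below the Rosa26 gRNA libraries at 80.4% to 83.1%.

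C3, the component on which all pathways converge, was low in these cells and lower in each JunD gRNA library than in any Rosa26 gRNA library. It measured 1.89, 1.70 and 1.95 CPM with the JunD gRNA, against 2.35, 2.18 and 2.34 CPM with the Rosa26 gRNA. It had 79, 70 and 97 counts with the JunD gRNA and 102, 109 and 112 with the Rosa26 gRNA. The groups did not overlap, but the gap between 1.95 and 2.18 CPM was small. Its log2 fold change came to -0.29 ± 0.18 (SE) for all libraries and -0.28 ± 0.22 for 5. C3 (ENSMUSG00000024164.15) lies on chromosome 17 from 57203970 to 57228136, apart from the C4 locus.

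The promoter of C3 is printed because JunD acts through AP-1 sites, and the RefSeq promoter table (GRCm38.p6) holds 3 of the 7 genes, C3, Cd55 and Cd59a. Each entry has 250 bases before and 50 bases after the annotated start. The AP-1 motif was searched on both strands in a loose form, TGANTCA with N as any base. It was found in 0 of these 3 promoters and in 7.81% of all 32851 promoters in the table. C3 had 1 match to TTGCNNAA, a motif of C/EBP factors, 45 bases before its start, in capitals here. This motif occurred in 10.8% of all promoters, and it was absent from the windows of Cd55 and Cd59a. The cyclic AMP response element TGACGTCA (1.79% of all promoters), the interferon-gamma activation site TTCNNNGAA (8.30%) and the NF-kB motif (4.50%) had 0 matches in all 3. These are matches of letters in a window and say nothing of binding. The C3 sequence lies at chr17:57228087-57228386, minus strand.
C3 promoter: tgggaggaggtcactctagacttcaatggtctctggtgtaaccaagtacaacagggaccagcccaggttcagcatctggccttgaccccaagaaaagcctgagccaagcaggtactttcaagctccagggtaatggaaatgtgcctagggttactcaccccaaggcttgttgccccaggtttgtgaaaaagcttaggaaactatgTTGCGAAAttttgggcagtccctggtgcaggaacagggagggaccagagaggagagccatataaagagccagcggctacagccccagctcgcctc

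Cfb encodes factor B, the protease of the alternative pathway convertase. It stood at 3.54, 3.82 and 3.43 CPM with the JunD gRNA, against 4.70, 4.38 and 4.08 CPM with the Rosa26 gRNA. Every JunD gRNA library was below every Rosa26 gRNA library, and Rosa26 gRNA replicate 1 was the highest of the 6. The log2 fold change was -0.27 ± 0.14 (SE) with 6 libraries and -0.23 ± 0.16 with 5. Cfb (ENSMUSG00000090231.10) lies on chromosome 17 from 34856374 to 34862518, near the C4 genes. In GENCODE release M21, 2246 of its 2825 exon bases (79.5%) are also exons of Gm20547, a gene on the same strand that runs on into C2. Gm20547 is listed with 0 counts in all 6 libraries. Unless the annotation used for counting differed, reads in the shared exons were thus not counted for both genes. With settings for such reads not stated, the level of Cfb may rest on its 579 unshared exon bases alone. The comparison between gRNAs is of the same bases in each library, but a level per exon length is uncertain.

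Serping1 encodes the C1 inhibitor, the secreted serpin that blocks C1r, C1s and the lectin-pathway proteases. It stood at 11.1, 12.4 and 12.2 CPM with the JunD gRNA, against 11.2, 17.6 and 17.6 CPM with the Rosa26 gRNA. Rosa26 gRNA replicate 1 lay within the JunD gRNA range, and the other Rosa26 gRNA libraries lay above all JunD gRNA libraries. The log2 fold change was -0.36 ± 0.17 (SE) with 6 libraries and -0.56 ± 0.09 with 5, so this 1 library moved it by more than 1.5 times. Without Rosa26 gRNA replicate 2 or 3 it was -0.26 and -0.25. Serping1 (ENSMUSG00000023224.12) lies on chromosome 2 from 84765387 to 84775444.

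Cd55 encodes decay-accelerating factor, a membrane protein that takes apart the C3 convertases. It was low, with 29, 40 and 47 counts with the JunD gRNA and 43, 79 and 50 with the Rosa26 gRNA. The levels were 0.694, 0.974 and 0.947 CPM with the JunD gRNA, against 0.991, 1.58 and 1.05 CPM with the Rosa26 gRNA. The groups did not overlap, by a margin of 0.974 to 0.991 CPM, and the log2 fold change was -0.45 ± 0.30 (SE) with 6 libraries and -0.58 ± 0.33 with 5. Rosa26 gRNA replicate 2 was far above the rest, and without it the log2 fold change was -0.20. Cd55 lies on chromosome 1 from 130439027 to 130462744, next to its paralogue Cd55b, which had 0 counts in all libraries.

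Cd59a encodes a membrane inhibitor of the terminal pore, and CD59 is also known in islet cells for a role in insulin secretion. Its counts were 6, 8 and 8 with the JunD gRNA and 3, 7 and 11 with the Rosa26 gRNA. Its level was 0.144 to 0.195 CPM with the JunD gRNA and 0.0691 to 0.230 CPM with the Rosa26 gRNA, and the groups overlapped. Cd59a was the sole member removed by the filter on low counts and has no fold change, and a difference was not detectable at this depth. Cd59a (ENSMUSG00000032679.12) lies on chromosome 2 from 104095801 to 104115354, beside its paralogue Cd59b, which was also low at 0.398 ± 0.142 CPM with the JunD gRNA and 0.302 ± 0.120 CPM with the Rosa26 gRNA (SD, n = 3 each).

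Across the set, 6 of the 7 genes passed the filter on low counts. With 6 libraries edgeR called 0 of the 6, against 0% of all genes. With 5 libraries it called C4b and Serping1 lower, 2 of 6, against 1.40% of all genes. After correction for GC content and transcript length on those 5 libraries edgeR called 576 genes (3.15%), of which 210 were lower (1.15%), and the same 2 members were among them. DESeq2 called C4b alone, where it called 0.265% of all genes lower with 6 libraries. The set was drawn up on this contrast, so nothing is read from these counts. The JunD gRNA libraries lay below all Rosa26 gRNA libraries for 4 of the 7 (C4b, C3, Cfb and Cd55), where 12.8% of all tested genes did so. The median log2 fold change of the 6 tested was -0.33 with 6 libraries and -0.42 with 5, beside -0.01 and -0.00 over all genes tested. C4a alone of the 6 had a positive value.

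**Figure D3:**
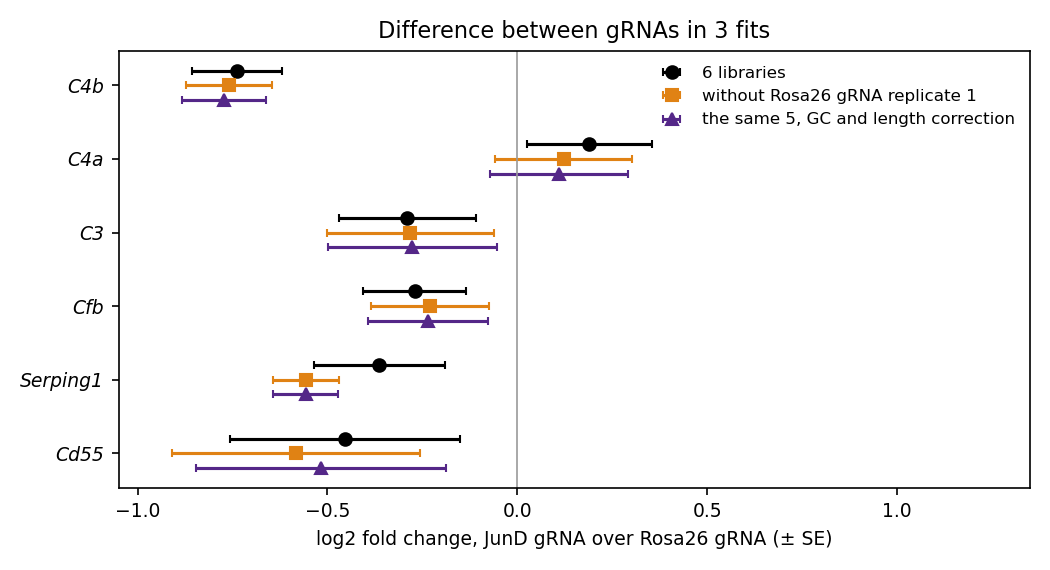
Log2 fold change of JunD gRNA over Rosa26 gRNA, with its SE, for the 6 genes that passed the count filter. Black circles are the fit on 6 libraries, orange squares that without Rosa26 gRNA replicate 1, and purple triangles the same 5 libraries after correction for GC content and transcript length. C4b stays between -0.77 and -0.74 in the 3 fits, and Serping1 moves between -0.36 with 6 libraries and -0.56 with 5.

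Levels between genes were compared per kilobase of annotated exon (CPM per kb). With the JunD gRNA the order was Serping1 (5.13), C4b (1.29), Cfb (1.27), C4a (0.494), C3 (0.360), Cd55 (0.180) and Cd59a (0.0919 CPM per kb). With the Rosa26 gRNA it was Serping1 (6.65), C4b (2.17), Cfb (1.55), C3 (0.445), C4a (0.438), Cd55 (0.248) and Cd59a (0.0808 CPM per kb). With the JunD gRNA the ranges of C4b and Cfb overlapped, whereas with the Rosa26 gRNA C4b lay above Cfb in all libraries and the ranges of C3 and C4a overlapped. Counted over its unshared exon bases alone, Cfb would stand at 6.21 ± 0.353 CPM per kb with the JunD gRNA and 7.57 ± 0.538 CPM per kb with the Rosa26 gRNA (SD, n = 3 each), above C4b in both groups. Gm20547 had 0 counts in all libraries, so reads in the shared exons were probably not counted for both genes. The place of Cfb after C4b in the orders above is therefore unsafe.

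The rest of the complement system was mostly at low levels in these cells. Of 48 other complement genes, 36 were under 1 CPM in all 6 libraries and 10 of these had 0 counts in all. In a library, 0 counts allow a level of up to 0.0600 to 0.0730 CPM, which is 3 counts. Among the 17 that passed the filter with 6 libraries, edgeR called 0 at an adjusted p of 0.05 and 1 had an unadjusted p under 0.05, and DESeq2 and limma-voom also called 0. Over all genes 0% were called in that fit and 11.9% had an unadjusted p under 0.05. With 5 libraries 0 of 18 were called and 2 had an unadjusted p under 0.05, where 2.86% and 15.9% of all genes did. A count of 0 among 18 does not set these genes apart from such a share. The median log2 fold change was 0.14 with 6 libraries and 0.01 with 5, beside -0.01 and -0.00 over all genes tested.

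**Figure D4:**
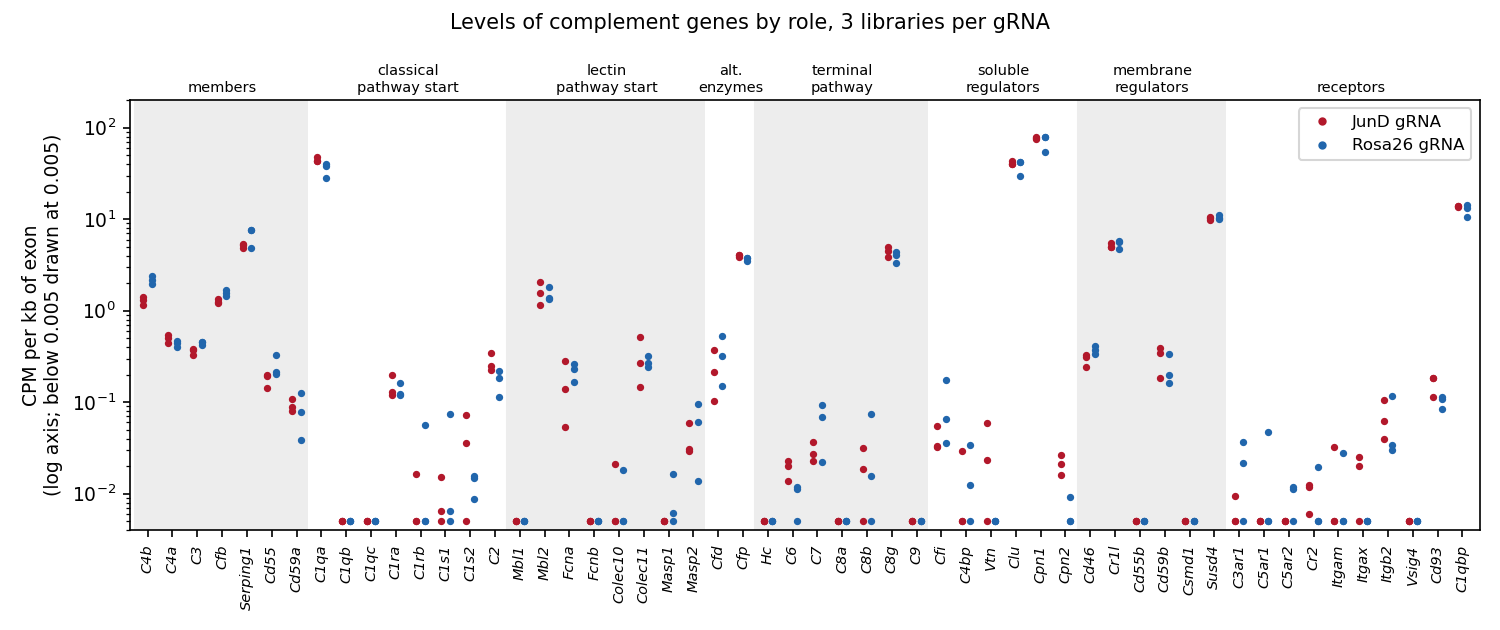
Level of the complement genes shown, in each library, in CPM per kb of exon on a log axis, with values below 0.005 drawn at 0.005. Genes are grouped by role, and each has 3 JunD gRNA libraries (red, left) and 3 Rosa26 gRNA libraries (blue, right). C1qa, Clu and Cpn1 stand highest, most lectin-pathway, terminal-pathway and receptor genes lie near the bottom, and C4b, with no overlap between its groups, lies in the middle.

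At the start of the classical pathway, C1qa was abundant while no counts were seen for its partners. C1q is assembled from A, B and C chains, and C1qa encodes the A chain. Its level was 44.8, 45.3 and 49.8 CPM with the JunD gRNA, against 29.3, 40.2 and 42.0 CPM with the Rosa26 gRNA. C1qb and C1qc had 0 counts in all 6 libraries. The groups of C1qa did not overlap, with Rosa26 gRNA replicate 1 the lowest library, and it did not pass with 6 (log2 fold change 0.34 ± 0.14, SE, edgeR adjusted p = 0.417) or 5 libraries (0.19, adjusted p = 0.110). Correction for GC content and length on the 5 gave 0.11 (edgeR adjusted p = 0.377). No annotated exon of another gene overlaps C1qa in GENCODE release M21. The protease genes C1ra, C1s1 and C1rb were under 1 CPM in every library. C2, which supplies the protease of the classical convertase, averaged 1.06 ± 0.251 CPM with the JunD gRNA and 0.672 ± 0.214 CPM with the Rosa26 gRNA (SD, n = 3 each), with 46.9% of its exon bases shared with other genes. It did not pass with 6 libraries (log2 fold change 0.66 ± 0.35, edgeR adjusted p = 0.435) or without Rosa26 gRNA replicate 1 (0.42 ± 0.35, adjusted p = 0.623).

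Of the lectin-pathway genes, only Mbl2, a mannose-binding lectin, exceeded 1 CPM, at 1.73 ± 0.498 CPM with the JunD gRNA and 1.65 ± 0.288 CPM with the Rosa26 gRNA. In the alternative pathway, Cfp, which encodes the convertase stabiliser properdin, stood at 6.90 ± 0.180 CPM with the JunD gRNA and 6.32 ± 0.262 CPM with the Rosa26 gRNA (SD, n = 3 each). Of 7 terminal-pathway genes, only C8g exceeded 1 CPM, at 6.66 ± 0.821 CPM with the JunD gRNA and 5.82 ± 0.833 CPM with the Rosa26 gRNA. Hc, the mouse gene of C5, and C8a and C9 had 0 counts in all libraries.

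Per kb of exon, the soluble regulator Cpn1 had the highest level of the complement genes listed, at 77.8 CPM per kb with the JunD gRNA and 70.8 CPM per kb with the Rosa26 gRNA. Cpn1, the catalytic subunit of carboxypeptidase N that trims the anaphylatoxins, averaged 287 ± 7.70 CPM with the JunD gRNA and 261 ± 53.8 CPM with the Rosa26 gRNA (SD, n = 3 each). Clu, which encodes clusterin, an inhibitor of the terminal complex, averaged 143 ± 6.38 CPM with the JunD gRNA and 131 ± 25.7 CPM with the Rosa26 gRNA. For both genes Rosa26 gRNA replicate 1 was the lowest library, and their log2 fold changes were 0.15 and 0.14 with 6 libraries and -0.02 and -0.02 with 5. Cr1l, which encodes Crry, the rodent membrane regulator of C3 and C4, averaged 53.1 ± 3.37 CPM with the JunD gRNA and 55.7 ± 5.53 CPM with the Rosa26 gRNA. The complement inhibitor gene Susd4 averaged 39.4 ± 1.57 CPM with the JunD gRNA and 40.7 ± 1.99 CPM with the Rosa26 gRNA. None of these 4 passed in edgeR with 6 or 5 libraries (adjusted p of 0.214 for Cr1l with 5 libraries). Among receptor genes, C1qbp, a mitochondrial protein that also binds C1q, averaged 39.0 ± 0.487 CPM with the JunD gRNA and 35.8 ± 5.29 CPM with the Rosa26 gRNA, and the anaphylatoxin receptor genes C3ar1, C5ar1 and C5ar2 were at or near 0.

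C4b, C4a and Cfb lie in the class III region of the major histocompatibility complex, and the genes listed as their neighbours there are described here. Of 8 neighbours, 7 were tested. With 6 libraries edgeR called 0 of the 7 and 2 had an unadjusted p under 0.05, against 0% and 11.9% of all genes. With 5 libraries it called 0 and 3 had an unadjusted p under 0.05, against 2.86% and 15.9% of all genes. A count of 0 among 7 does not set these genes apart from such a share. All 7 log2 fold changes were positive in both fits, as were 48.9% of all genes with 6 libraries and 49.2% with 5. Their median was 0.20 with 6 libraries and 0.14 with 5. With GC content and length corrected on the 5, 6 of the 7 stayed positive, as did 56.1% of all genes, and the median was 0.08. Nelfe, a subunit of the NELF pausing complex, averaged 122.8 ± 4.76 CPM with the JunD gRNA and 102 ± 16.7 CPM with the Rosa26 gRNA (SD, n = 3 each). Ehmt2, a histone methyltransferase, averaged 237 ± 7.05 CPM with the JunD gRNA and 215 ± 6.90 CPM with the Rosa26 gRNA. For these genes Rosa26 gRNA replicate 1 was the lowest library, and without it the log2 fold change of Nelfe was 0.14 in place of 0.28 and that of Ehmt2 was 0.12 in place of 0.16. Skiv2l, an RNA helicase, Dxo, a decapping enzyme, and Stk19 had log2 fold changes of 0.09, 0.29 and 0.20 with 6 libraries and of 0.03, 0.13 and 0.15 without Rosa26 gRNA replicate 1. The correction gave -0.01 for Skiv2l and 0.06 for Dxo. Tnxb, the tenascin X gene next to C4b, was under 1 CPM in all libraries and its log2 fold change was 0.06 ± 0.53 (SE), or 0.42 ± 0.67 without Rosa26 gRNA replicate 1. The steroid 21-hydroxylase gene Cyp21a1, between C4b and C4a, had at most 0.0418 CPM and was not tested.

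Factors and receptors through which cytokines are known to raise complement genes showed small differences. Of 12 tested, edgeR called 0 with 6 libraries and 1 had an unadjusted p under 0.05, against 0% and 11.9% of all genes. With 5 libraries it called 0 and 4 had an unadjusted p under 0.05, against 2.86% and 15.9% of all genes. The median log2 fold change was -0.08 in both fits and -0.07 with GC content and length corrected on the 5. Of the 12, 4 were positive with 6 libraries, 1 with 5 and 2 after that correction. Over all genes 48.9%, 49.2% and 56.1% were. Il1r1, the interleukin-1 receptor, averaged 800 ± 14.9 CPM with the JunD gRNA and 931 ± 106 CPM with the Rosa26 gRNA (SD, n = 3 each). Its log2 fold change was -0.20 (edgeR adjusted p = 0.417) and -0.12 with 5 libraries (adjusted p = 0.0609), and it was -0.04 once GC content and length were corrected. Ifngr1, a chain of the interferon-gamma receptor, had a log2 fold change of -0.20 with 6 libraries, -0.21 with 5 and -0.19 after the correction. Rela, an NF-kB subunit, had a log2 fold change of 0.01 with 6 libraries, -0.07 with 5 and -0.14 after the correction.

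Plau, Csf1, Jpx and Stx11 were among the 5 genes whose profile over the 6 libraries was most like that of C4b. Likeness was the root mean square difference of log2 CPM after subtracting each gene's mean, among 11657 genes with a mean of at least 2 CPM. The difference from C4b was 0.100 for Plau, the urokinase gene, and 0.111 for Csf1, the macrophage growth factor gene. It was 0.133 for Jpx, a long non-coding RNA gene, and 0.136 for Stx11, a syntaxin gene. Plau stood at 3.04, 3.31 and 2.36 CPM with the JunD gRNA, against 5.18, 5.18 and 5.08 CPM with the Rosa26 gRNA. As in C4b, JunD gRNA replicate 3 was the lowest library. Among the other complement genes of the set, the difference was 0.250 for Cfb, 0.281 for Cd55, 0.284 for C3, 0.319 for Serping1 and 0.488 for C4a. The 5 genes above were picked as the nearest, so larger differences here carry no weight. Among 17767 genes tested, Cfb ranked 281 in nearness to C4b, Cd55 731, C3 793, Serping1 2117 and C4a 12208. The measure rests on the same libraries and gRNA contrast as the choice of C4b, so it is a description.

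**Figure D5:**
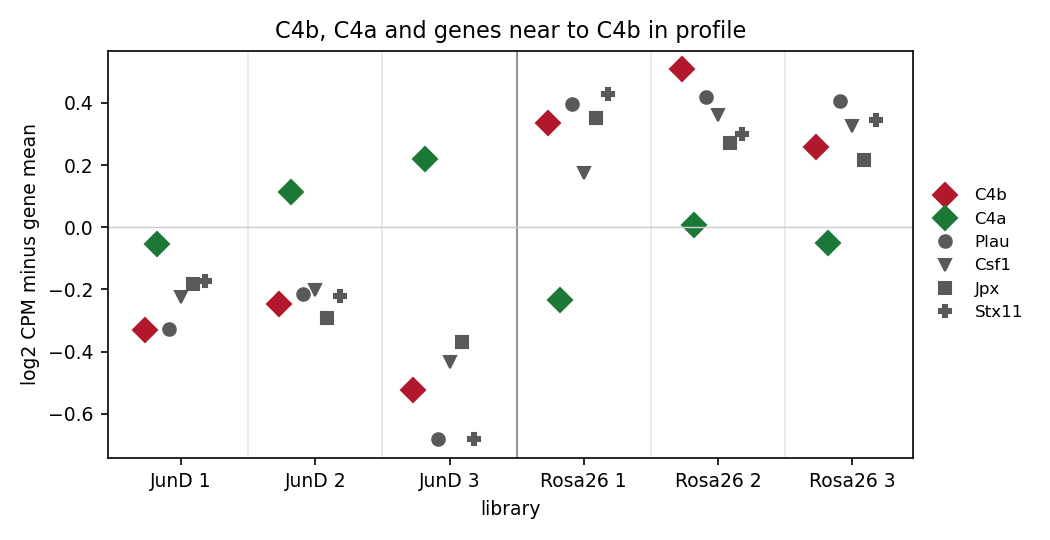
Log2 CPM minus the gene's mean over the 6 libraries, for C4b (red diamonds), C4a (green diamonds) and Plau, Csf1, Jpx and Stx11 (grey). C4b lies at -0.25 to -0.52 in the JunD gRNA libraries and at 0.26 to 0.51 in the Rosa26 gRNA libraries, and the 4 grey genes lie below 0 with the JunD gRNA and above 0 with the Rosa26 gRNA, whereas C4a lies at -0.05 to 0.22 with the JunD gRNA and at -0.23 to 0.01 with the Rosa26 gRNA.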

How the data were processed

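RNA from Min6 cells was purified on RNeasy columns and sequenced, per the labels. The authors deposited 1 table of raw gene counts for each of 6 libraries. TopHat2, featureCounts and mm10 are named in the submitters' processing notes. Versions, annotation, strand setting and multi-mapping rules are not stated in the sources used, so overlapping and near-identical genes are uncertain. Symbols matched 53274 of 53379 identifiers. Coordinates and exon lengths came from GENCODE release M21 on GRCm38. CPM are counts over the library total.

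The 2 groups were compared with edgeR 4.0.16 in R 4.3.3 (TMM, filterByExpr, quasi-likelihood test, two-sided, Benjamini-Hochberg over all genes). SE is the absolute log2 fold change over the square root of F. The members and gene lists were chosen with earlier results of these data known. Genes were named by rule: the 7 members, Jund, the chromosome 17 neighbours, the 5 genes most like C4b, and complement genes that passed or averaged at least 10 CPM. Others were named for their role after their values were seen. Alternatives were DESeq2 1.42.0, its size factors, limma-voom (limma 3.58.1), other count filters, a replicate block, each library left out, C4a and C4b summed, and GC content with transcript length as offsets (splines, 5 degrees of freedom). No pair of libraries within a group agreed within sampling noise (chi-square per degree of freedom 3.22 or more). The procedure was tested on simulated data in which no library was set apart. That test therefore does not cover a library like Rosa26 gRNA replicate 1. Some genes that the rule or the lists hold are counted but not reported here by name.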

Additional observations from a re-analysis of the deposited data

How the results depend on the processing

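With 6 libraries edgeR called 0 genes, as did limma-voom, and edgeR with DESeq2's size factors, with at least 1 CPM in 3 libraries and with the replicate number as a block. DESeq2 called 20 higher and 47 lower of 17767 genes, and edgeR without a count filter 33 higher and 53 lower of 29458. The GC and length correction called 11 higher and 14 lower of 17767. Leaving out 1 library gave 0 to 266 higher and 0 to 257 lower, with calls only without Rosa26 gRNA replicate 1. The correction on those 5 libraries gave 366 higher and 210 lower. From 5 to 7 of the 7 complement genes were tested in each fit. Of these, 1 (C4b) was called with DESeq2, without a count filter and with the correction on 6 libraries. From 0 to 2 were called with a library left out, and 2 (C4b and Serping1) with the correction on 5. Nothing is read from these counts. Of the 48 other complement genes 0 were called under any alternative run. The log2 fold change of C4b kept its sign in all 14 alternatives for the gene itself (-0.80 to -0.66), and C4a and C4b summed gave -0.52. That of C4a kept its sign in all 14 (0.11 to 0.26). Those of C3 (-0.34 to -0.23), Cfb (-0.34 to -0.23), Serping1 (-0.56 to -0.25) and Cd55 (-0.58 to -0.20) also kept theirs. C4b was chosen for being lower in this contrast. The groups of C4b, C3, Cfb and Cd55 did not overlap with 6 libraries, so a kept sign there was close to fixed and is a description. Same-numbered libraries had correlations of their deviations of 0.0555, -0.0393 and 0.0742, against -0.101 to 0.0687 for the others. These show no clear pairing by number. With 3 libraries a group and Rosa26 gRNA replicate 1 far from the rest, they cannot exclude one. The replicate block called 0 of the 6 complement genes tested. Low counts limit Cd55 and Cd59a most.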
